A study of Mus musculus with 6 samples.

Results

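The phase II conjugation enzymes described here are 74 of the 55401 genes in the count table: every gene annotated as protein-coding whose symbol begins with Gst, Mgst, Ugt, Sult or Ephx in the patterns of those families, together with Nqo1. They comprise 23 soluble glutathione S-transferases (GST), 3 membrane-bound ones (MGST), 22 UDP-glycosyltransferases (UGT), 21 sulfotransferases (SULT), and a group of 5 formed by the epoxide hydrolases (EPHX) and NAD(P)H quinone dehydrogenase, Nqo1. A further 8 genes match by name but are not annotated as protein-coding and were left out. No expression value was used in choosing them. The levels come from poly(A) RNA of whole mouse kidney, sequenced in 6 libraries labelled as separate biological replicates.

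The first group, Cdo1KKO/Sed, comprised 3 libraries of Cdo1KKO mice, whose genotype label is KO. The other, WT/Sed, comprised 3 libraries of mice whose genotype label is WT. All mice of both groups had been given streptozotocin, a toxin of the pancreatic beta cell, to induce type 1 diabetes, so no group without diabetes stands beside them. Cdo1 encodes cysteine dioxygenase, which starts the oxidation of cysteine to taurine and sulfate, and the design asks which pathways Cdo1 of the renal tubule affects. What Sed stands for, how the knockout was driven, and the mice's age, sex and batch were not found in the sources at hand.

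Phase II enzymes join a polar group to a drug, hormone or reactive metabolite so that it can be excreted. GSTs add glutathione, most UGTs add glucuronic acid from UDP-glucuronate, and SULTs add a sulfonate group from the donor PAPS. Epoxide hydrolases open epoxides with water, and Nqo1 reduces quinones. In kidney much of this chemistry is carried out by the proximal tubule, which also takes up and secretes organic anions, and several of the genes are textbook targets of the oxidant-sensing transcription factor NRF2 (gene Nfe2l2). Many are expressed at different levels in male and female mice.

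The libraries held 28145261 to 43872779 counts. As a check of the labels, Cdo1 stood at 109.5, 118 and 102.5 CPM (counts scaled to a common library size, with TMM factors) in Cdo1KKO/Sed, against 181, 191 and 180.5 CPM in WT/Sed, so its transcript was lower without overlap but still present. Of 17194 genes tested by the edgeR quasi-likelihood test with Benjamini-Hochberg adjustment, 37.4% changed at an adjusted p under 0.05. Markers of proximal tubule S2 and S3 fell in 13 of 15 cases and those of S1 in 9 of 10, and none rose. The summed level of the S2 and S3 list was 27830 to 31040 CPM in Cdo1KKO/Sed against 39470 to 45870 CPM in WT/Sed, and that of the S1 list was 6660 to 7186 CPM against 10540 to 10730 CPM. Markers of injured tubule rose in 9 of 10 cases, with summed levels of 9089 to 10890 CPM in Cdo1KKO/Sed and 1170 to 1480 CPM in WT/Sed. Other lists rose as well: 4 of 6 thick ascending limb, 5 of 6 distal convoluted tubule, 6 of 8 fibroblast and pericyte, 7 of 10 macrophage and dendritic cell and 4 of 5 neutrophil markers tested. The neutrophil sum was 14.1 to 17.2 CPM in Cdo1KKO/Sed and 1.57 to 3.03 CPM in WT/Sed. In the thick ascending limb list and in the macrophage and dendritic cell list, 1 marker each fell. Collecting duct markers fell in 2 of 8 cases and rose in 1. Their sum was 437 to 444 CPM in Cdo1KKO/Sed and 652 to 675 CPM in WT/Sed. Podocyte markers fell in 2 of 6 cases and none rose. On principal components the groups separated on the first (68.1% of the variance), and WT/Sed replicates 2 and 3 stood at opposite ends of the second (14.9%). In whole tissue, fewer cells of a type and less RNA per cell cannot be told apart. The part of these shifts in the results on conjugation enzymes was not tested. Of the 10 hepatocyte markers, 2 of 7 tested fell and none rose, with sums of 346.5 to 364 CPM in Cdo1KKO/Sed and 359 to 524 CPM in WT/Sed; Apob, Ttr and Serpina1a held most of the sum, and Ahsg, Cyp2c29 and Cyp3a11 had at most 6 counts in any library. The 4 Y-linked genes examined were counted in every library, with sums of 218 to 245 CPM in Cdo1KKO/Sed and 248 to 290 CPM in WT/Sed, while Xist stayed at or under 0.349 CPM. Of the 4 Y-linked genes, 3 were called lower in Cdo1KKO/Sed on the TMM scale and none rose. In TPM (transcript levels per length and depth) their sums overlapped, at 103 to 120 TPM in Cdo1KKO/Sed and 99.0 to 118.5 TPM in WT/Sed.

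More conjugation enzymes fell than rose in Cdo1KKO/Sed kidneys on the TMM scale, though not in TPM. Of the 22 that fell, 21 had a mean of at least 10 TPM. Small falls are hard to call at low counts, and the share of all genes by level was not taken. Nothing is therefore read from the level of the genes that fell. Of the 74, 49 passed the filter on low counts, and of these 9 rose and 22 fell, 63.3% against the 37.4% called among all genes. Over all tested genes 18.9% rose and 18.5% fell, and among the tested conjugation enzymes 18.4% rose and 44.9% fell. The median log2 fold change of the 49 was -0.30, against 0.01 for all tested genes. In CPM the groups lay apart for 12 genes that were higher and 23 that were lower in Cdo1KKO/Sed. Over all tested genes 25.7% were higher and 24.5% lower in this way, 50.3% in either direction. Among the 12, Ephx3, Gstp3, Gsta1, Sult1e1 and Sult6b1 passed the filter through the Cdo1KKO/Sed libraries and no WT/Sed library. Nothing is therefore read from the number that were higher. The remaining 18 tested genes were not called, 13 had too few counts for the test, and 12 had no count in any library (9 sulfotransferases and 3 UGTs). A count of 0 gives no firm upper limit for those that share much sequence, such as Ugt2a1 and Ugt2a2, with 97.0% and 93.6% of their 50-base words in other genes, and Sult2a2, with 62.1%. The balance depends on the scaling. With the deposited TPM on a log2(TPM + 1) scale, the median over all genes moves to 0.21, 41.2% of all genes rise and 8.1% fall, and 12 of the conjugation enzymes rise and 11 fall. The median of the conjugation enzymes moves to -0.05, which is still below that of all genes. Changes below are therefore relative to the TMM scaling, and genes whose call ends with log2(TPM + 1) are named as such.

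Of the 17 genes with a mean of at least 100 TPM over all libraries, 12 fell and 3 (Gsta2, Mgst1 and Nqo1) rose. Of the 12 at 10 to 100 TPM, 9 fell and Gsta4 and Gstm2 rose. Of the 12 at 1 to 10 TPM, Sult1b1 fell and Sult1e1 and Gstp3 rose. Of the 21 with lower levels above 0, Gsta1 and Ephx3 rose, none fell, and 13 were not tested. A fall of more than 1 on the log2 scale was found for Sult1d1 and Ugt3a1, where 1.65% of all tested genes fell so far. A rise of more than 1 was found for Mgst1, Sult1e1, Gstp3, Gsta1 and Ephx3, where 6.76% of all tested genes rose so far. All of these but Mgst1 passed the filter on low counts through the 3 Cdo1KKO/Sed libraries and no WT/Sed library, so they could be tested only because they were high there; they are 4 of the 9 rises, and nothing is read from their number.

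**Figure D1:**
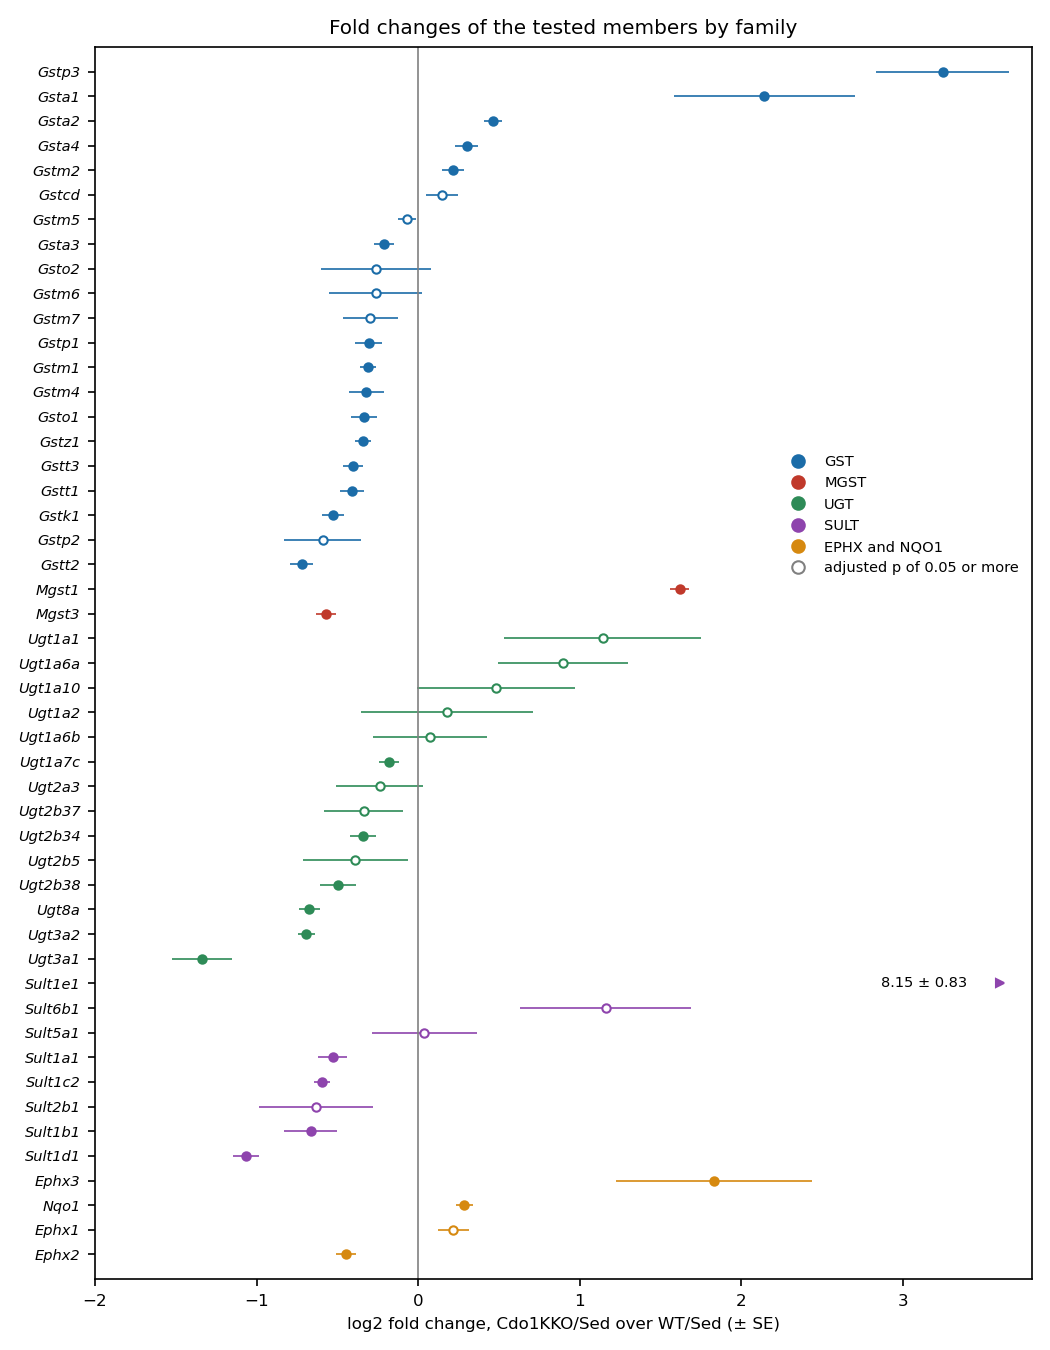
Log2 fold changes (Cdo1KKO/Sed over WT/Sed, with an approximate SE) of the 49 tested conjugation enzymes, by family; filled points have an adjusted p under 0.05 and open points do not. The 22 filled points left of 0 lie between -1.34 and -0.18, and the 9 to the right lie between 0.22 and 8.15, where the value for Sult1e1, drawn as an arrow, rests on 2 counts in WT/Sed.

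Summed over all 74 genes, conjugation enzyme transcripts reached 7307, 7374 and 7183 TPM in the Cdo1KKO/Sed libraries, against 8832, 8577 and 8884 TPM in the WT/Sed libraries. The groups did not overlap, and the Cdo1KKO/Sed mean was 83.2% of the WT/Sed mean. The sum was unequal between families. UGT transcripts summed to 2887, 2995 and 2793 TPM in Cdo1KKO/Sed against 3717, 3824 and 3594 TPM in WT/Sed, and SULT transcripts to 1372, 1393 and 1413 TPM against 2394, 2035 and 2652 TPM. Both families were lower in every Cdo1KKO/Sed library than in any WT/Sed library. MGST transcripts went the other way, at 413, 393.5 and 430 TPM in Cdo1KKO/Sed and 218, 199 and 209 TPM in WT/Sed. The GST sum was higher in TPM, at 1954, 1905 and 1874 TPM in Cdo1KKO/Sed against 1799, 1781 and 1772 TPM in WT/Sed, and lower in TMM-scaled CPM, at 1358, 1358 and 1295 CPM against 1599, 1594 and 1574 CPM. No direction is therefore given for the GST family as a whole. As a share of all counts, the 74 genes took 0.636% to 0.659% in Cdo1KKO/Sed and 0.847% to 0.867% in WT/Sed. Each sum is set by a few genes: Sult1d1 made up 89.7% of SULT TPM in Cdo1KKO/Sed and 93.1% in WT/Sed, and Ugt2b38 with Ugt3a2 made up 47.5% and 35.3% of UGT TPM in Cdo1KKO/Sed and 43.7% and 37.4% in WT/Sed.

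**Figure D2:**
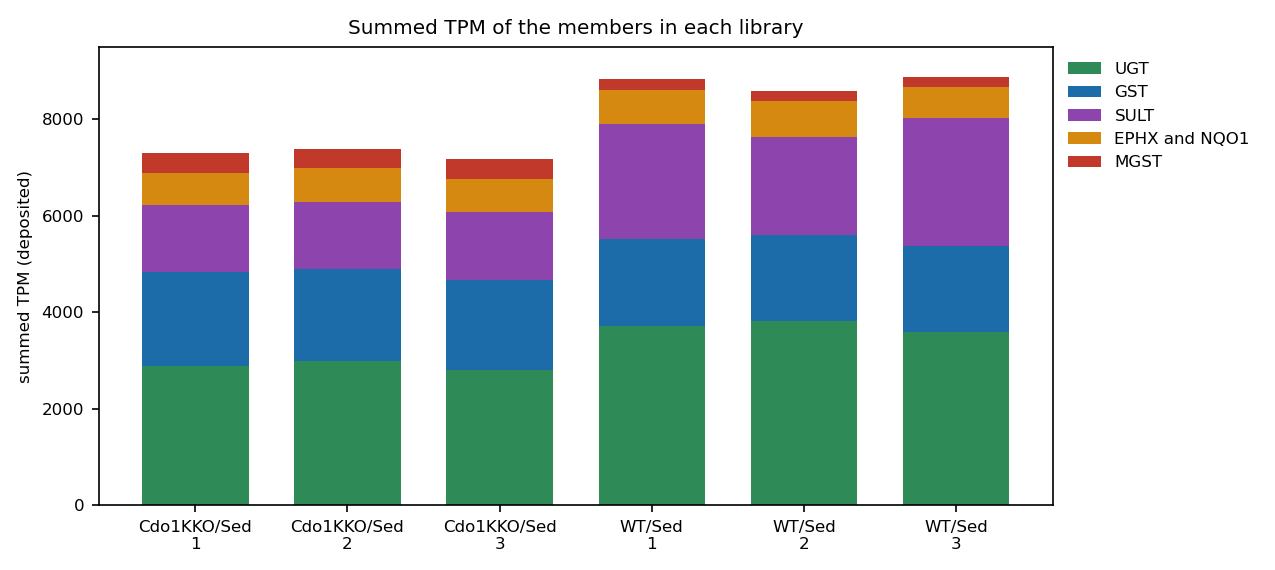
Summed deposited TPM of the 74 conjugation enzymes in each of the 6 libraries, stacked by family (bar height is the sum; single libraries, no error bar). The 3 Cdo1KKO/Sed bars end between 7183 and 7374 TPM and the 3 WT/Sed bars between 8577 and 8884 TPM, with the UGT and SULT segments smaller and the MGST segment larger in Cdo1KKO/Sed.

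Among the membrane-bound GSTs, Mgst1 rose and Mgst3 fell. Mgst1, an enzyme of the endoplasmic reticulum and outer mitochondrial membrane that conjugates glutathione and reduces lipid hydroperoxides, rose about 3.07-fold. It held 233, 219 and 246 CPM in the Cdo1KKO/Sed libraries, against 78.5, 72.5 and 76.1 CPM in the WT/Sed libraries. The groups were far apart, and the spread within each was small. The log2 fold change was 1.62 ± 0.06 (SE, n = 3 libraries each; edgeR quasi-likelihood test, adjusted p = 1.02e-08). Mgst3, which has peroxidase and leukotriene C4 synthase activity, held 39.4, 42.3 and 38.5 CPM in Cdo1KKO/Sed, against 62.6, 57.7 and 58.2 CPM in WT/Sed. It was lower in all 3 Cdo1KKO/Sed libraries without overlap (log2 fold change -0.57 ± 0.06, adjusted p = 3.76e-05 in the same test). Mgst1 thus made up 76.0% of MGST TPM in Cdo1KKO/Sed and 40.9% in WT/Sed. Mgst2 had 20 counts over the Cdo1KKO/Sed libraries and 10 over the WT/Sed libraries and was not tested.

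Mgst1 lies on chromosome 6 (138140316 to 138156755, plus strand; GRCm38, GENCODE M21). Its 300 bases around 1 of its RefSeq start sites (250 before to 50 after; GRCm38.p6, chr6:138140277-138140576, plus strand) are shown because Mgst1 had the largest rise among the abundant conjugation enzymes and because the window holds the core letters of the antioxidant response element, the site that NRF2 binds. The core, TGACNNNGC, is in capitals and is read on the opposite strand.
Mgst1: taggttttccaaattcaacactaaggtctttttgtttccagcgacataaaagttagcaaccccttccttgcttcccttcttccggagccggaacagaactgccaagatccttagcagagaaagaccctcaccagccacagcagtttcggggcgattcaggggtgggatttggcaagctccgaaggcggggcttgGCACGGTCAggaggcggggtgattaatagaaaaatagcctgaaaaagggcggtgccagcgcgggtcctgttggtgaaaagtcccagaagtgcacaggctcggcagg
The window of the other RefSeq start site of Mgst1 (chr6:138141337-138141636) holds neither this core nor GCGTG, the core of the xenobiotic response element. The same letters, on either strand, were found in 12.4% of 32851 RefSeq windows of this length and in 4 of the 79 windows that 65 of the conjugation enzymes have (5.1%). The others were Gsta3, which fell, and Gstm5 and Gstm7, which were not called. In Gstm5 the match, TGACCACGC, overlaps GCGTG on the opposite strand. That xenobiotic core was found in 32.4% of all windows and in 17 of the 79 (21.5%). A match describes the letters and is not evidence of binding.

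Of 21 soluble GSTs tested, 5 rose (23.8%) and 10 fell (47.6%) on the TMM scale, where 18.9% of all tested genes rose and 18.5% fell. Of the 5, Gsta1 and Gstp3 passed the filter on low counts through the Cdo1KKO/Sed libraries only. With log2(TPM + 1), 7 rose and 3 fell, where 41.2% of all genes rose and 8.1% fell. Gsta2, of the alpha class that conjugates products of lipid peroxidation, rose: it held 194, 179 and 186 CPM in Cdo1KKO/Sed, against 135, 141 and 129 CPM in WT/Sed. All 3 Cdo1KKO/Sed libraries were above all WT/Sed libraries (log2 fold change 0.46 ± 0.06; edgeR quasi-likelihood test, adjusted p = 6.82e-05). It took 22.4% of GST TPM in Cdo1KKO/Sed and 14.6% in WT/Sed. Its neighbours on chromosome 9, Gsta4, which acts on 4-hydroxynonenal, and Gsta1, rose as well. Gsta4 held 23.8, 22.6 and 24.6 CPM in Cdo1KKO/Sed, against 18.7, 19.6 and 19.3 CPM in WT/Sed. Gsta1 had 12, 22 and 22 counts in Cdo1KKO/Sed against 6, 3 and 2 in WT/Sed, a ratio of 4.59 (95% counting interval 2.38 to 9.72). It shares 90.5% of its 50-base words with other genes, while Gsta2 shares 49.8%, so the split of counts between them is uncertain. Without Cdo1KKO/Sed replicate 2 the adjusted p for Gsta1 was 0.0545. The other alpha-class gene, Gsta3 on chromosome 1, was lower by 0.21 ± 0.06 on the log2 scale but by log2(TPM + 1) was higher by 0.041 and not called. Its call ended in 4 fits that each left out a library, namely WT/Sed replicate 1 and each Cdo1KKO/Sed library in turn (edgeR adjusted p 0.0562 to 0.0873).

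The mu class, a cluster of 7 genes on chromosome 3, differed gene by gene. Gstm1, the GST with the highest level, held 274.5, 278 and 263 CPM in Cdo1KKO/Sed, against 340, 334.5 and 337 CPM in WT/Sed. It fell without overlap (log2 fold change -0.31 ± 0.05, edgeR quasi-likelihood adjusted p = 0.000423), but in log2(TPM + 1) the difference was not called. Gstm5 held 88.0, 85.5 and 81.8 CPM in Cdo1KKO/Sed and 90.8, 84.7 and 92.1 CPM in WT/Sed. Its groups overlapped (-0.07 ± 0.06, adjusted p = 0.364), and with log2(TPM + 1) it was called higher, by 0.18 (adjusted p = 0.0262). Gstm4 fell by 0.32 ± 0.11 on the log2 scale and Gstm2 rose by 0.22 ± 0.07. Leaving out Cdo1KKO/Sed replicate 1, Cdo1KKO/Sed replicate 3 or WT/Sed replicate 3 ended the call for Gstm4 (adjusted p 0.0867 to 0.123). Each fit that left out 1 library ended the call for Gstm2 (0.0520 to 0.114), except the one that left out WT/Sed replicate 2. Gstm6 and Gstm7 were not called, nor was Gstcd, a gene of another chromosome 3 locus, and Gstm3 had too few counts to test. Without Cdo1KKO/Sed replicate 2, therefore, 3 soluble GSTs rose.

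In the theta, kappa, zeta and omega classes, Gstt1, Gstt2, Gstt3, Gstk1, Gstz1 and Gsto1 fell on the TMM scale, but the calls for Gstt1, Gstz1 and Gsto1 ended with log2(TPM + 1); Gsto2 was not called and Gstt4 was not tested. Gstt2 held 141, 144 and 129 CPM in Cdo1KKO/Sed, against 225, 208 and 248 CPM in WT/Sed, the largest fall among soluble GSTs called (log2 fold change -0.72 ± 0.07, edgeR quasi-likelihood adjusted p = 1.61e-05). Its neighbours Gstt1 and Gstt3 fell by 0.41 and 0.40 on the log2 scale. Without a filter on low values, log2(TPM + 1) ended the call for Gstt3 too (limma adjusted p = 0.0566). Gstk1, the kappa enzyme of mitochondria and peroxisomes, held 31.7, 32.9 and 29.6 CPM in Cdo1KKO/Sed, against 42.2, 48.0 and 45.6 CPM in WT/Sed (-0.53 ± 0.07, adjusted p = 0.000157). Gstz1, which isomerises maleylacetoacetate in the breakdown of tyrosine, held 246, 244.5 and 232 CPM in Cdo1KKO/Sed, against 310, 302 and 304 CPM in WT/Sed (-0.34 ± 0.05, adjusted p = 0.000244). Neither gene's groups overlapped. The omega enzyme Gsto1 fell by 0.33 ± 0.08.

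On chromosome 19, Gstp1, the most expressed gene of the pi class, fell and its neighbour Gstp3 rose. Gstp1 held 99.1, 108 and 99.5 CPM in Cdo1KKO/Sed, against 131, 138 and 109.6 CPM in WT/Sed. Its groups were close, with WT/Sed replicate 3 near the Cdo1KKO/Sed values (log2 fold change -0.31 ± 0.08, edgeR quasi-likelihood adjusted p = 0.0138), and the call ended when WT/Sed replicate 1, Cdo1KKO/Sed replicate 1 or Cdo1KKO/Sed replicate 3 was left out (adjusted p 0.0642 to 0.0696), as well as with TPM. Gstp2, at 1.74 to 2.67 CPM in Cdo1KKO/Sed and 2.43 to 3.67 CPM in WT/Sed, overlapped between groups and was called lower without WT/Sed replicate 3 (adjusted p = 0.0127). Gstp3 had 47, 45 and 82 counts in Cdo1KKO/Sed against 8, 4 and 4 in WT/Sed. It was higher in every Cdo1KKO/Sed library, by a pooled ratio of 9.81 (95% counting interval 5.87 to 17.6; adjusted p = 0.000109). Gstp3 shares no 50-base word with other genes, while Gstp1 and Gstp2 share 33.7% and 54.3% of theirs.

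**Figure D3:**
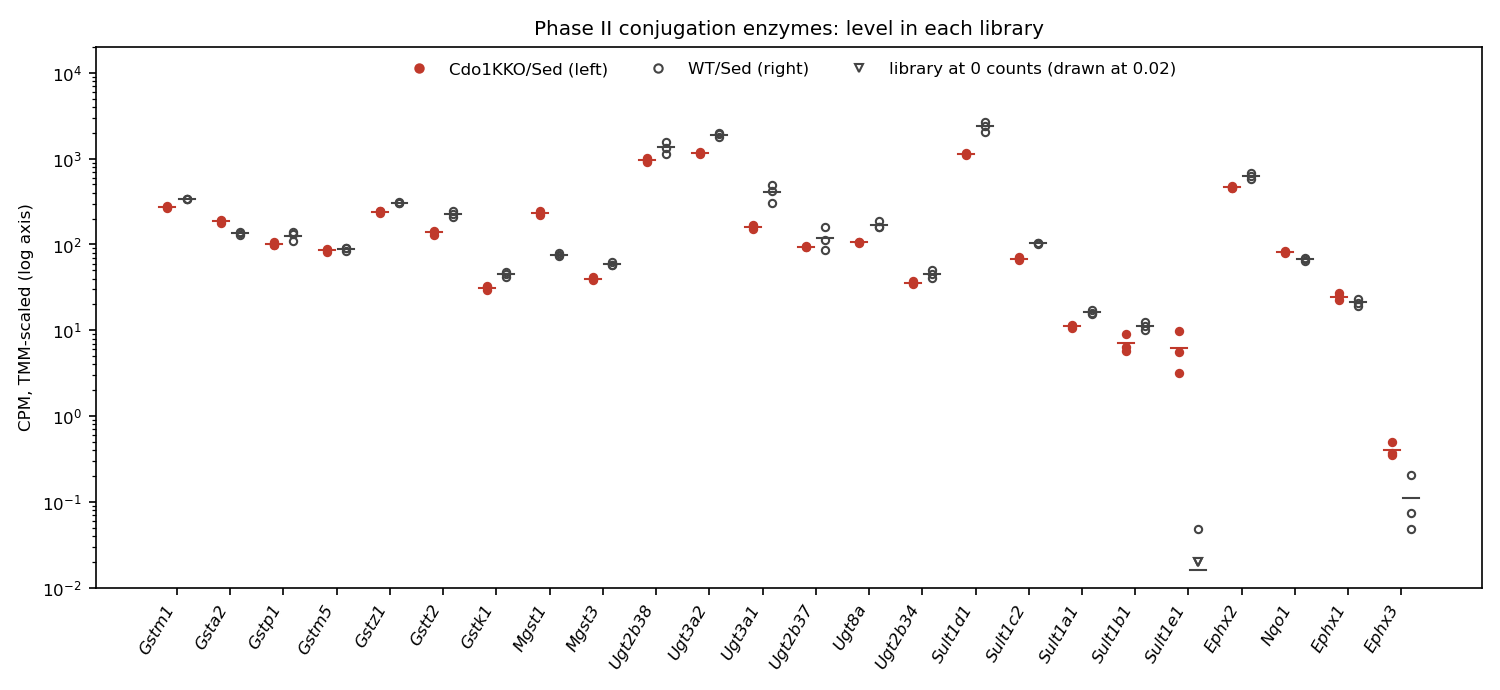
CPM (TMM-scaled, log axis) of the abundant or strongly changed conjugation enzymes of each family; filled points are the 3 Cdo1KKO/Sed libraries and open points the 3 WT/Sed libraries, bars are means, and triangles mark libraries at 0 counts, drawn at 0.02. Mgst1 sits at 219 to 246 CPM in Cdo1KKO/Sed against 72.5 to 78.5 CPM in WT/Sed, Sult1d1 at 1110 to 1157 CPM against 2059 to 2659 CPM, and Sult1e1 at 3.19 to 9.92 CPM against at most 0.0487 CPM.

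Of 14 UGTs tested, 6 fell (42.9%) and none rose on the TMM scale, where 18.5% of all tested genes fell and 18.9% rose. With log2(TPM + 1), 3 fell and Ugt1a6a rose, where 8.1% of all genes fell and 41.2% rose. Ugt3a1 and Ugt3a2 are neighbours on chromosome 15 (9276888 to 9315032 and 9335550 to 9370955, plus strand), in a subfamily whose human members use sugars other than glucuronic acid. Ugt3a1 held 162, 167 and 151 CPM in Cdo1KKO/Sed, against 418, 300.5 and 494 CPM in WT/Sed. The Cdo1KKO/Sed libraries lay close together and the WT/Sed libraries were spread, with no overlap (39.6% of the WT/Sed level, log2 fold change -1.34 ± 0.19, edgeR quasi-likelihood adjusted p = 0.00295). Ugt3a2 held 1174, 1206 and 1134 CPM in Cdo1KKO/Sed, against 1915, 1790 and 1974 CPM in WT/Sed (61.9%, -0.69 ± 0.05, adjusted p = 2.17e-06). Both genes were lower in every Cdo1KKO/Sed library. They share 7.6% and 7.0% of their 50-base words with other genes.

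The UGT2 genes on chromosome 5 glucuronidate steroids, bile acids and drugs. Ugt2b38, the UGT with the highest TPM, held 941, 1031 and 906 CPM in Cdo1KKO/Sed, against 1341, 1575 and 1143 CPM in WT/Sed. The groups were apart in CPM but overlapped in TPM (log2 fold change -0.50 ± 0.11, edgeR quasi-likelihood adjusted p = 0.0112), and the call ended with TPM and with library size as the only scaling. Ugt2b38 shares 37.4% of its 50-base words with other genes, most of them with Ugt2b5. Ugt2b37 held 95.8, 94.5 and 93.0 CPM in Cdo1KKO/Sed and 111, 162 and 85.6 CPM in WT/Sed. The Cdo1KKO/Sed values lay inside the WT/Sed range, and the gene was not called (-0.34 ± 0.24, adjusted p = 0.353). Ugt2b34 held 34.6, 35.5 and 37.2 CPM in Cdo1KKO/Sed, against 45.3, 50.5 and 40.6 CPM in WT/Sed, lower in CPM without overlap and overlapping in TPM (-0.34 ± 0.08, adjusted p = 0.00628). Ugt2b5 and Ugt2a3 stood under 5 CPM and were not called, except Ugt2b5 without WT/Sed replicate 3 (adjusted p = 0.0292). Between them, Ugt2b35 and Ugt2b36 had 4 counts, all in WT/Sed.

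Ugt8a makes galactosylceramide, the lipid from which kidney sulfatide is formed. It held 106, 105 and 106 CPM in Cdo1KKO/Sed, against 161, 186 and 159 CPM in WT/Sed, and fell without overlap (log2 fold change -0.67 ± 0.06, edgeR quasi-likelihood adjusted p = 1.48e-05). The 9 Ugt1a genes of chromosome 1, which include the bilirubin enzyme Ugt1a1, have separate first exons and share the others, so counts per gene cannot apportion reads from the shared exons: 52.1% to 79.8% of their 50-base words occur in another gene. Ugt1a7c held nearly all Ugt1a counts, at 158 ± 11.1 CPM in Cdo1KKO/Sed and 179 ± 7.23 CPM in WT/Sed (SD, n = 3 each). Its call (edgeR -0.18 ± 0.06, adjusted p = 0.0387) ended when Cdo1KKO/Sed replicate 1, Cdo1KKO/Sed replicate 3 or WT/Sed replicate 1 was left out (adjusted p 0.114 to 0.183), and by log2(TPM + 1) it was higher by 0.071 and not called. Ugt1a6a, at 6.52, 5.08 and 5.75 CPM in Cdo1KKO/Sed and 3.26, 4.91 and 1.34 CPM in WT/Sed, was higher without overlap but not called (0.90 ± 0.40, adjusted p = 0.127). It was called without WT/Sed replicate 2 or 3 (adjusted p = 0.00548 and 0.0459).

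Among sulfotransferases, neighbours on chromosome 5 moved in opposite directions: Sult1d1 fell and Sult1e1 rose. Sult1d1, which sulfonates catecholamines and other small phenols, was the conjugation enzyme with the highest mean TPM and ranked 32 among all genes by that measure. It held 1110, 1157 and 1140 CPM in Cdo1KKO/Sed, against 2414, 2059 and 2659 CPM in WT/Sed. The Cdo1KKO/Sed libraries were alike and all well under the lowest WT/Sed library (47.8% of the WT/Sed level, log2 fold change -1.07 ± 0.08, edgeR quasi-likelihood adjusted p = 8.57e-06). Next to it on chromosome 5, Sult1e1, the estrogen sulfotransferase, had 182, 127 and 455 counts in Cdo1KKO/Sed, equal to 5.57, 3.19 and 9.92 CPM, against 0, 0 and 2 counts in WT/Sed. Every Cdo1KKO/Sed library was above every WT/Sed library, though they differed about 3-fold among themselves. The pooled ratio was 345 with a 95% counting interval of 95.1 to 2851, or 61.5 to 13650 if each fragment was counted as 2 (adjusted p = 0.000192). Sult1b1, on the other side of Sult1d1 and active on thyroid hormones, held 8.94, 6.46 and 5.80 CPM in Cdo1KKO/Sed, against 11.1, 12.5 and 9.95 CPM in WT/Sed. It was lower without overlap in CPM and overlapped in TPM (-0.67 ± 0.16, adjusted p = 0.00839).

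The 3 genes lie within 87513339 to 87591594 of chromosome 5, all on the minus strand. The RefSeq windows of Sult1d1 (chr5:87568957-87569256, minus strand) and Sult1e1 (chr5:87591562-87591861, minus strand) are shown because these neighbours moved in opposite directions. In the Sult1d1 window capitals mark the xenobiotic response element core GCGTG read on the opposite strand; no capitals in the Sult1e1 window means that neither this core nor that of the antioxidant response element is in it, from which nothing is drawn about the factors.
Sult1d1: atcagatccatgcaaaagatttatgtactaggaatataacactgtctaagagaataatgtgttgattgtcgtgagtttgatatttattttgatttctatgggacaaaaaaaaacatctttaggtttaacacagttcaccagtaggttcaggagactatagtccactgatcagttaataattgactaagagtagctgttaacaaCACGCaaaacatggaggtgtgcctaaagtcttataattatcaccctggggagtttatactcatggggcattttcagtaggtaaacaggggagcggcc
Sult1e1: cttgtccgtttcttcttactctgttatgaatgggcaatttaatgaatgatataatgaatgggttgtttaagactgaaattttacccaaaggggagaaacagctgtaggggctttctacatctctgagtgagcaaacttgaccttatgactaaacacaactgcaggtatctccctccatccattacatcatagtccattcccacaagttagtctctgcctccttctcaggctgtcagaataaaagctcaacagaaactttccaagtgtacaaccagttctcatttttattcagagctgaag

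Of the 8 sulfotransferases tested, Sult1e1 rose and 4 fell, among them Sult1d1 and Sult1b1. Sult1c2 held 68.8, 70.8 and 65.9 CPM in Cdo1KKO/Sed, against 105, 101.7 and 103.5 CPM in WT/Sed (log2 fold change -0.59 ± 0.05, edgeR quasi-likelihood adjusted p = 6.48e-06). Sult1a1, the general phenol sulfotransferase, held 10.8, 11.3 and 11.6 CPM in Cdo1KKO/Sed, against 15.6, 15.9 and 17.0 CPM in WT/Sed (-0.53 ± 0.09, adjusted p = 0.000731). Both were lower in every Cdo1KKO/Sed library in CPM and in TPM. Sult5a1, Sult2b1 and Sult6b1 stood near or under 1 CPM and were not called. The steroid-sulfonating Sult2a genes were at or near 0, with Sult2a3 the only one counted in both groups, at 20 counts in Cdo1KKO/Sed and 16 in WT/Sed.

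Of the epoxide hydrolases, Ephx2 fell and Ephx3 rose, and Nqo1 rose. Ephx2, the soluble hydrolase that inactivates epoxides of arachidonic acid, held 457, 476.5 and 455 CPM in Cdo1KKO/Sed, against 636, 681 and 577 CPM in WT/Sed. It fell without overlap (log2 fold change -0.45 ± 0.06, edgeR quasi-likelihood adjusted p = 0.000216); the call ended with log2(TPM + 1) without a filter on low values (limma adjusted p = 0.0605). Ephx1, the microsomal enzyme for foreign epoxides, held 26.9, 22.3 and 24.9 CPM in Cdo1KKO/Sed and 23.4, 20.8 and 19.4 CPM in WT/Sed, with overlap (0.22 ± 0.09, adjusted p = 0.0938), and it was called higher with log2(TPM + 1). Nqo1 held 81.4, 84.4 and 79.5 CPM in Cdo1KKO/Sed, against 64.5, 69.1 and 67.6 CPM in WT/Sed, and rose without overlap to 122% of the WT/Sed level (0.29 ± 0.05, adjusted p = 0.00153). Ephx3 had 12, 20 and 16 counts in Cdo1KKO/Sed against 8, 2 and 2 in WT/Sed, a ratio of 3.61 (95% counting interval 1.89 to 7.46; adjusted p = 0.0344). Its call ended in 5 of the 6 fits that left out 1 library, all but the fit without WT/Sed replicate 1 (adjusted p 0.0727 to 0.130), and with DESeq2. Ephx4 had 8 counts in each group.

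In the list of glutathione supply and mercapturate formation, 12 of 23 tested fell (52.2%) and 7 rose (30.4%), with a median of -0.31. Over all tested genes 18.5% fell and 18.9% rose. The NADPH-forming enzymes Pgd and G6pdx rose by 0.97 ± 0.05 and 0.87 ± 0.06 on the log2 scale. The cystine importer Slc7a11 rose to 4.90, 3.42 and 5.995 CPM in Cdo1KKO/Sed, against 0.154, 0.225 and 0.146 CPM in WT/Sed. At its WT/Sed level, Slc7a11 could pass the filter on low counts only through the Cdo1KKO/Sed libraries. Anpep, a brush-border peptidase that trims cysteinylglycine conjugates, fell by 0.67 on the log2 scale. Chosen after their values were seen, for their place in the pathway, glutathione synthetase Gss and gamma-glutamyltransferase Ggt1, which opens the degradation of glutathione conjugates, fell by 0.57 and 0.61, while the subunits of glutamate-cysteine ligase, Gclc and Gclm, rose by 0.36 and 0.17. Nat8, which acetylates cysteine conjugates and was also named after its values were seen, was not called. It held 169, 180 and 170 CPM in Cdo1KKO/Sed and 172, 188.5 and 160 CPM in WT/Sed. Of the related genes in the list, Nat8f1, Nat8f3 and Nat8f5 fell by 0.85, 0.54 and 0.31 on the log2 scale, and Nat8f2 was not called.

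A list of sulfonate and glucuronate donor supply and deconjugation held 15 tested genes. On the TMM scale 1 rose (6.67%), 7 fell (46.7%) and 7 were not called, with a median of -0.16. Over all tested genes 18.9% rose and 18.5% fell. With log2(TPM + 1), 6 rose and 4 fell, where 41.2% of all genes rose and 8.1% fell. Papss2, which makes PAPS, held 228, 243 and 222.5 CPM in Cdo1KKO/Sed, against 435, 377 and 495 CPM in WT/Sed. It fell without overlap (log2 fold change -0.91 ± 0.09, edgeR quasi-likelihood adjusted p = 4.70e-05). The other PAPS synthase, Papss1, named after its values were seen, was not called (0.05 ± 0.06, adjusted p = 0.605 in the same test). The sulfate exchanger Slc26a1 and the lysosomal sulfatase Arsb fell by 0.72 and 0.59, and the Golgi PAPS transporter Slc35b3 rose by 0.52 ± 0.07. The other Golgi PAPS transporter, Slc35b2, also named after its values were seen, was called lower by 0.34 ± 0.11, with groups that overlapped in CPM. For glucuronate, Ugdh, which makes UDP-glucuronate and was named after its values were seen, was not called (0.11 ± 0.05, adjusted p = 0.0953). Enzymes of other conjugation reactions rose in 2 of 18 cases (11.1%) and fell in 11 (61.1%), with a median of -0.55. Among them Keg1 (glycine acyltransferase-like) held 1455, 1500 and 1338 CPM in Cdo1KKO/Sed, against 2789, 2708 and 2863 CPM in WT/Sed. Glycine N-acyltransferase Glyat, the medium-chain acyl-CoA synthetase Acsm5 and Mettl7a1 fell by 0.53, 1.03 and 0.71. Nnmt, which methylates nicotinamide, rose, with 1.41, 1.01 and 1.29 CPM in Cdo1KKO/Sed against 0, 0.225 and 0.0487 CPM in WT/Sed. At its WT/Sed level, Nnmt could pass the filter on low counts only through the Cdo1KKO/Sed libraries.

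Of 36 genes tested in a list of the NRF2 pathway and its other targets, 23 rose (63.9%) and 4 fell (11.1%). The median was 0.40, and over all tested genes 18.9% rose and 18.5% fell. Nfe2l2 itself, named after its values were seen, held 132, 123 and 135 CPM in Cdo1KKO/Sed, against 81.3, 80.0 and 84.5 CPM in WT/Sed. It rose without overlap (log2 fold change 0.67 ± 0.05, edgeR quasi-likelihood adjusted p = 4.43e-06). Pgd, G6pdx, Slc7a11, Gsr, Gclc and Gclm, which all rose, are in this list and in that of glutathione supply. The rises in these lists are therefore largely the same genes and not separate observations for glutathione supply. Ferritin heavy chain, Fth1, rose by 0.67 ± 0.04. Those that fell were Me1, Cat, Abcc2 and Cbr1. In the list of xenobiotic receptors and partners, 6 of 19 fell (31.6%) and 4 rose (21.1%), with a median of -0.07. Hnf4a and the bile acid receptor Nr1h4 fell by 0.76 and 0.74, Ppard rose by 1.24 ± 0.11, and Tiparp rose by 0.61. Chosen after their values were seen, the aryl hydrocarbon receptor Ahr and its target Cyp1a1 were not called (0.29 ± 0.14 and -0.19 ± 0.38). Cyp1b1 of the same list rose by 1.21 ± 0.31. Ahrr, which was not tested, had 4, 2 and 6 counts in Cdo1KKO/Sed and 0 in every WT/Sed library. No direction is therefore read for Ahr and its targets.

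**Figure D4:**
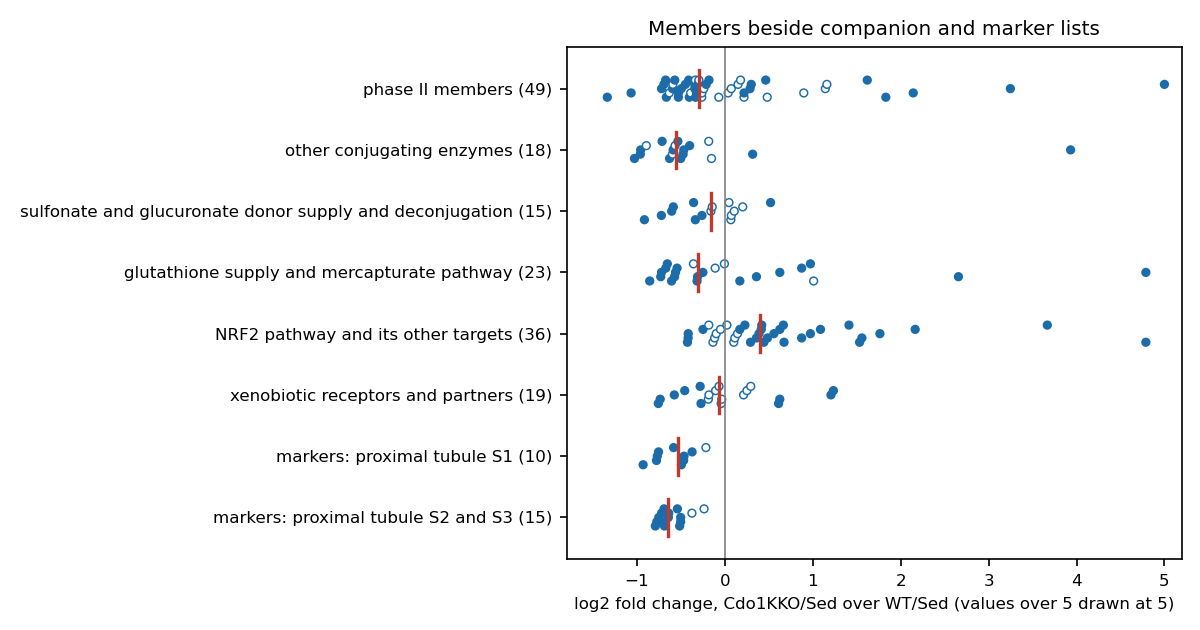
Log2 fold changes (Cdo1KKO/Sed over WT/Sed) of tested genes in the conjugation enzymes, 5 companion lists and 2 proximal tubule marker lists; each point is a gene, filled where the adjusted p is under 0.05, the red bar is the median, and values over 5 are drawn at 5. The medians run from -0.64 for the S2 and S3 markers to 0.40 for NRF2 and its other targets, with the conjugation enzymes at -0.30.

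Of the 31 conjugation enzymes called, 15 kept their direction and call under all 18 alternative analyses. Those that rose were Mgst1, Gsta2, Gsta4, Nqo1, Gstp3 and Sult1e1, and those that fell were Sult1d1, Sult1c2, Sult1a1, Ugt3a1, Ugt3a2, Ugt8a, Mgst3, Gstt2 and Gstk1. Of these, Gstp3 and Sult1e1 passed the filter on low counts through the Cdo1KKO/Sed libraries and no WT/Sed library. Nothing is read from their place among the steady calls. In TPM all 9 genes that rose were higher without overlap between groups, and of the 22 that fell, 13 were lower without overlap. TPM come from the same counts, so this is not a separate test. Of the 9, 4 passed the filter on low counts through the Cdo1KKO/Sed libraries only. The share of all genes apart in TPM was not taken, so nothing is read from these numbers. With log2(TPM + 1), calls that ended also included those for Sult1b1, Ugt2b34 and Gstm4.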

How the data were processed

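Poly(A) RNA of mouse kidney was sequenced in 3 Cdo1KKO/Sed and 3 WT/Sed libraries. The authors deposited whole-number counts per gene and TPM, and the submitters' processing notes list fastp 0.23.4 and, as genome builds, GRCm38 and mm10. No source at hand names an aligner, a counter or whether strand was used. The deposited TPM of every conjugation enzyme with counts matched, within 1%, its counts divided by its GENCODE M21 exonic length. Between 73.3% and 75.9% of counts from 1 to 10 were even, so counting intervals, which cover counting error only, may be too narrow.

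Genes were filtered by filterByExpr in edgeR 4.0.16 (R 4.3.3), scaled by TMM and tested with the robust quasi-likelihood F test, with Benjamini-Hochberg adjustment over all 17194 genes. The SE is the log2 fold change divided by the square root of F. The scripts were tested on simulated data. TPM were tested with limma 3.58.1 (limma-trend, pseudocounts 1 and 0.1). Other alternatives were limma-voom, DESeq2 1.42.0, other scalings and filters, no robust fit, the replicate number as a block, and leaving out each library. Sequences are from RefSeq (GRCm38.p6), and motifs were searched on both strands. Figures were drawn with matplotlib 3.10.9.

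Within each family (GST, MGST, UGT, SULT, EPHX with Nqo1), a value in every library is given for the 4 genes with the highest mean TPM and for the 5 with the smallest p at a mean of at least 1 CPM. In companion lists up to 4 genes with the smallest p are named, and counts of 5 or fewer may be named. The genes and lists were chosen with earlier results of these data known. Replicate libraries all differed beyond counting noise (lowest chi-square per degree of freedom 3.39). Shared words are stretches of 50 bases of a gene's transcripts that also occur in another gene. Some items withheld for evaluation are not reported here.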

Additional observations from a re-analysis of the deposited data

How the results depend on the processing

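The counts of conjugation enzymes were steadiest for other count methods. RLE and upper-quartile factors, the fit that was not robust and DESeq2 each gave 9 higher and 22 lower. Scalings that shifted the median of all genes moved the counts: with TPM plus 1, TPM plus 0.1, TPM plus 1 without a filter, and library size only, the genes that rose numbered 6091, 6015, 5588 and 5513 (3250 as reported) and those that fell 1206, 1191, 1019 and 1685 (3185). The conjugation enzymes that fell then numbered 11, 11, 9 and 15 (22). GST genes that fell numbered 3, 3, 2 and 6 (10) and UGT genes 3 in each (6). Donor supply genes that rose numbered 6, 6, 4 and 5 (1) and those that fell 4, 4 and 3 with the TPM settings (7). NRF2 list genes that fell numbered 2 in each (4), and 7 genes of glutathione supply fell with TPM plus 1 without a filter and with library size only (12). In the setting without a filter, 3 SULT genes rose (1) and 0 of the EPHX and Nqo1 group fell (1). The UGT gene Ugt1a6a rose (1 against 0) under DESeq2, limma-voom, no filter and both filtered TPM settings. The EPHX and Nqo1 group had 1 gene higher (2) under DESeq2, a filter of 1 CPM and the replicate block.

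With TPM plus 0.1, plus 1 and plus 1 without a filter, Gsta3 had log2 fold changes of 0.042, 0.041 and 0.041 and Ugt1a7c 0.071, 0.071 and 0.071, opposite to the reported direction and not called; Gstm5 had 0.19 and 0.18 with the first 2. The cause was not tested. Leaving out 1 library gave 2306 to 3767 genes higher and 2331 to 3553 lower, and 6 to 9 conjugation enzymes higher and 18 to 23 lower. By family, 3 to 5 GST genes rose, 0 to 1 UGT genes rose and 1 to 2 of the EPHX and Nqo1 group rose. The replicate numbers did not pair the libraries (correlations of -0.002, 0.01 and 0.013 for the same number), and with the replicate block 8 conjugation enzymes rose and 20 fell. At this depth 25 conjugation enzymes were not tested, 12 of them with no count; low expression and reads that could not be assigned were not told apart.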
